A study of Mus musculus with 14 samples.

Results

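A mouse myeloma cell line was set against a mouse T-cell lymphoma cell line, probe by probe. Both are tumours of lymphocytes, 1 of the B lineage and 1 of the T lineage. Per the labels, total RNA of each line was labelled with Cy5 and hybridised with RNA of the Stratagene mouse reference, a purchased mixture made from mouse lines, labelled with Cy3. The myeloma line had 2 arrays and the T-cell lymphoma line had 1 array, which makes 3 of the 14 arrays of a series of 11 cell lines whose title asks which genes single lines contribute to the pool. No treatment is named for either line, and no array had its dyes exchanged. The short annotation of the samples calls them primary tissue while their titles call them cell lines, and the titles were followed. Each group is a single line whose clone, mouse strain and culture the labels do not name. Whether the 2 myeloma arrays hold RNA of separate cultures is not stated, so the p-values reflect array-to-array spread alone, which may be technical.

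Every value was read as a log2 ratio of line over pool, so that 0 is the level of the pool and 1 is 2-fold above it. The sources state neither base nor direction, and the values part base 2 from natural logs only weakly: for the tenth of probes that varied most, the mean unlogged ratio over all lines had a median of 0.923 with base 2 and 1.18 with natural logs, where a pool of equal parts gives 1. The difference for a probe is the mean of the 2 myeloma ratios minus the T-cell lymphoma ratio, in which the pool cancels, and it counts only where both myeloma arrays lie on the same side of the T-cell lymphoma array. Of 7601 features in the table, 7428 were measured on all 3 arrays and entered the comparison. They include 6401 genes with a name.

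Myeloma is a tumour of plasma cells, the antibody-secreting end stage of the B lineage. Plasma cells run on the transcription factors Irf4, Prdm1 and Xbp1, and they carry a large endoplasmic reticulum that folds, glycosylates and exports immunoglobulin. T cells use a receptor that signals through the CD3 chains, the kinase Zap70 and the adaptors Lat and Lcp2. B cells use the kinases Syk and Btk and the adaptor Blnk for the same task at their own receptor.

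Most measured markers of the 2 lineages lay on the side that the labels predict. The markers include the given Irf4, Blnk, Cd3g and Lat and were chosen with earlier results of these data known. Their direction is thus a description and no independent check of the labels. Of 15 markers of B cells and plasma cells, 10 were measured, and 9 of these had both myeloma arrays above the T-cell lymphoma array (against 38.6% of all named genes). Their median log2 ratio was 2.13 and 2.51 on myeloma arrays 1 and 2, against -1.21 on the T-cell lymphoma array. Of 14 T-cell markers, 8 were measured, and 7 had both myeloma arrays below the T-cell lymphoma array (against 39.4% of all named genes). Their median was -0.77 and -1.02 on the myeloma arrays, against 1.90 on the T-cell lymphoma array. The exceptions were Cd79a, a signalling chain of the B-cell receptor, and Cd8a, a T-cell coreceptor. The immunoglobulin chains Ighm and Igkc, the joining chain Jchain and the CD3 chains Cd3d and Cd3e were not measured here.

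Over the probes, which are no independent replicates, the myeloma arrays correlated at a Pearson's r of 0.676, and the T-cell lymphoma array gave 0.491 with myeloma array 1 and 0.317 with myeloma array 2. The difference between the myeloma arrays had an SD of 0.792 and was at least 2 in size for 176 probes. The lone T-cell lymphoma array was assumed to vary like this pair. The image numbers of the myeloma arrays adjoin each other and that of the T-cell lymphoma array lies in another run of numbers. Within these 3 arrays the run and the line thus cannot be told apart. The fibroblast line had 1 array in each of these runs, by which a fit given below sets the run as a fixed term. That term rests on a single fibroblast array per run, so values from this fit carry the noise of those arrays as well. The T-cell lymphoma array was also shifted along the order of the probes. Over the probes numbered up to 500 the median log2 ratio was -0.02 and -0.12 on the myeloma arrays and 0.67 on the T-cell lymphoma array, whose probes with higher numbers had a median of -0.04.

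**Figure D1:**
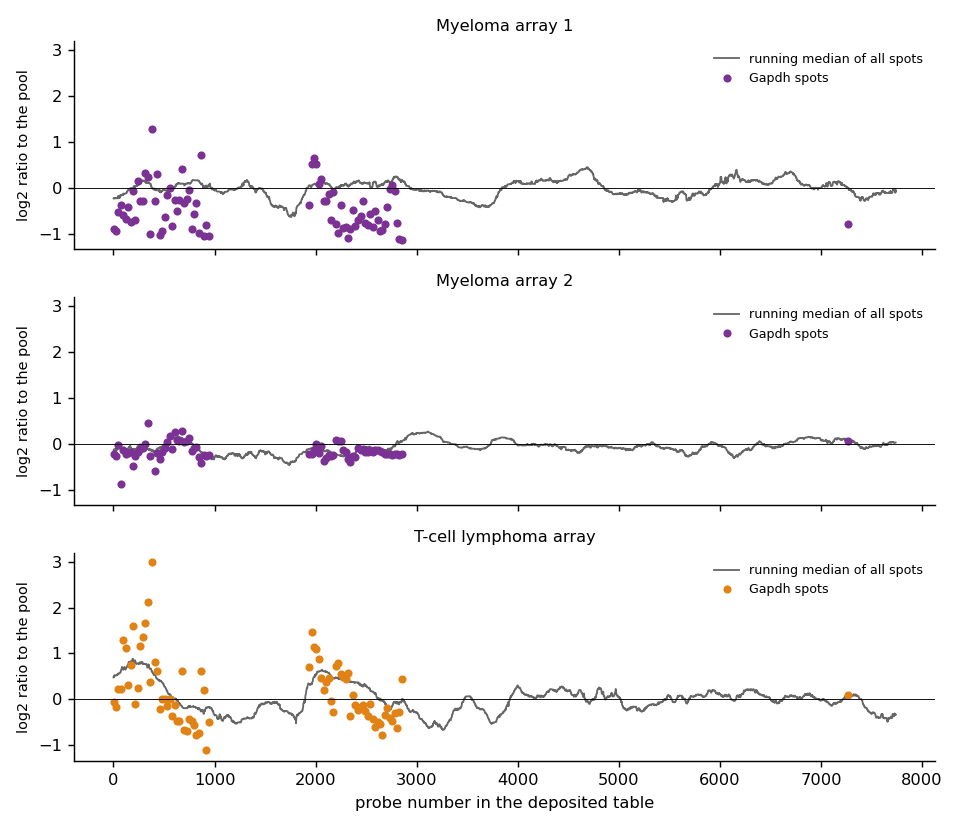
Log2 ratio to the pool (vertical axis) of each Gapdh spot (points) and the running median of all spots (grey line) against the probe number, for myeloma array 1, myeloma array 2 and the T-cell lymphoma array. On the T-cell lymphoma array the 21 Gapdh spots numbered up to 500 reached 2.99 with a median of 0.61, while the 59 with higher numbers had a median of -0.17.

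Both myeloma arrays lay above the T-cell lymphoma array for 2850 probes and below it for 2948, and the other 1630 had the T-cell value between the myeloma values or tied. Both myeloma differences share the T-cell lymphoma array, so these counts are no measure of agreement. In the limma test the spread of each probe between the myeloma arrays is drawn toward the spread over all probes. The test called 15 probes (0.202%) at a Benjamini-Hochberg adjusted p under 0.05. Of these, 10 (0.135%) were higher in myeloma and 5 (0.0673%) were lower in myeloma. Their adjusted p-values ran from 0.0452 to 0.0477 and the smallest difference among them was 4.92 in size, so the calls stand close to the threshold. In the same fit 93 probes had an adjusted p under 0.10 and 1236 had an unadjusted p under 0.05. With the spread taken from all 14 arrays 110 probes were called, 14 of the 15 among them. Without myeloma array 1 that fit called 19 probes, and without myeloma array 2 it called 0, with 916 at an unadjusted p under 0.05. No probe was called where the image run was a fixed term bridged by the fibroblast line (640 at an unadjusted p under 0.05) or where the arrays were scaled to an equal spread (780).

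A rule of size was used beside the test, as a description with no p-value. It asks that both myeloma arrays lie at least 2 (4-fold) above, or at least 2 below, the T-cell lymphoma array. It took 159 probes above (2.14%), of 148 named genes, and 147 probes below (1.98%), of 135 named genes. The value nearest to the limit was 2.00 for the last probe taken above and 1.99 for the first left out, and -2.02 and -1.996 below. Of the 159 probes above, both myeloma values were over the pool in 119, and the T-cell value was under it in 157. Of the 147 probes below, both myeloma values were under the pool in 133, and the T-cell value was over it in 139. With myeloma array 2 alone the rule took 310 above and 417 below, and with myeloma array 1 alone 234 and 259. In all, 25 of the 147 probes below and 6 of the 159 above were numbered up to 500, the stretch in which the T-cell lymphoma array was shifted, where 456 probes were tested.

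**Figure D2:**
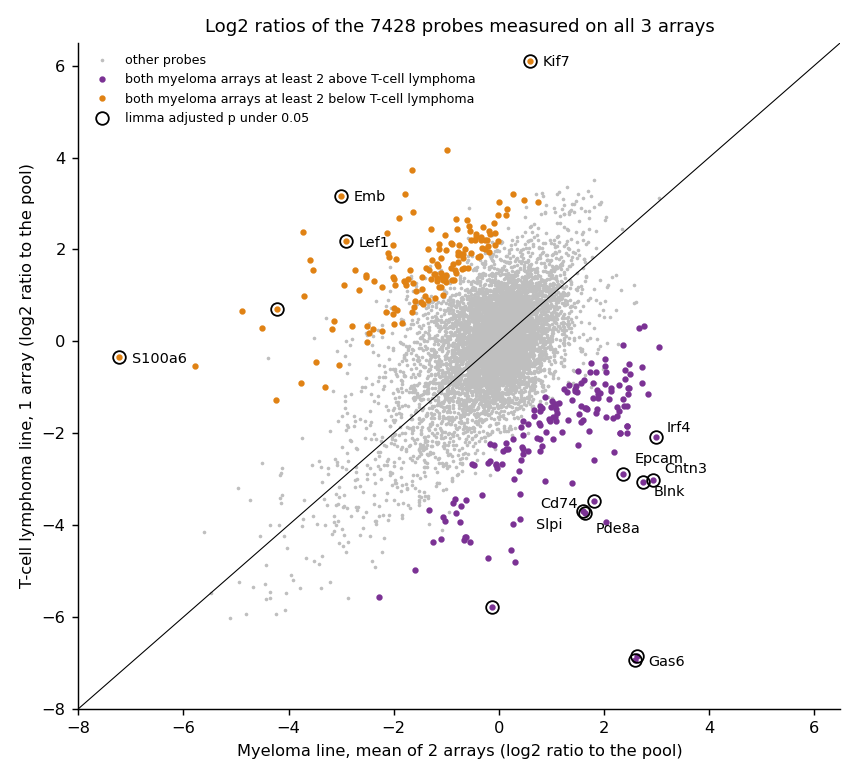
Mean log2 ratio to the pool on the 2 myeloma arrays (horizontal axis) against the log2 ratio on the T-cell lymphoma array (vertical axis) for the 7428 probes. The 159 probes that lie at least 2 above on both myeloma arrays are purple, the 147 that lie at least 2 below are orange, the diagonal marks equal ratios, and rings mark the 15 probes called by limma, of which 12 carry a gene name.

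The genes called higher in myeloma were Gas6, Cntn3, Blnk, Pde8a, Cd74, Slpi, Epcam and Irf4. Gas6, a secreted ligand of the TAM receptor kinases, had log2 ratios of 2.10 and 3.09 on the myeloma arrays and -6.95 on the T-cell lymphoma array. Its difference of 9.55 ± 0.60 (SE; limma adjusted p = 0.0452), a 748-fold ratio if the values are log2, was the largest in size of all called named genes. Most of that distance came from the T-cell side, where Gas6 lay far below the pool, and no other named gene called had so low a T-cell value. No signal over background was available, so the precision of a value so far under the pool, and of the fold, is not known. Blnk, the adaptor that links the B-cell receptor to its downstream enzymes, had 2.77 and 2.71 in myeloma and -3.06 in T-cell lymphoma (difference 5.80 ± 0.47, adjusted p = 0.0452). Irf4, a transcription factor that plasma cells need, had 3.01 and 2.97 in myeloma and -2.09 in T-cell lymphoma (difference 5.08 ± 0.47, adjusted p = 0.0452). For both genes the myeloma arrays repeated each other within 0.1 and the T-cell value stood on the other side of the pool, at a 55.8-fold ratio for Blnk and a 33.8-fold ratio for Irf4. The call of Irf4 was the less stable of the pair, since its adjusted p was 0.0676 with the spread of all 14 arrays, where that of Blnk was 0.0121.

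The other genes called higher in myeloma have varied roles. Cd74, the invariant chain that escorts MHC class II molecules, had 1.75 and 1.89 on the myeloma arrays against -3.48 on the T-cell lymphoma array (difference 5.30 ± 0.47). Slpi, a secreted inhibitor of leukocyte proteases, had 1.499 and 1.69 against -3.69 (difference 5.28 ± 0.47). Pde8a, a phosphodiesterase that breaks down cyclic AMP, had 1.38 and 1.90 against -3.74 (difference 5.38 ± 0.51). In all 3 genes the groups lay on opposite sides of the pool with a wide gap. Epcam, a surface adhesion protein best known from epithelia, had 2.15 and 2.59 against -2.90 (difference 5.27 ± 0.49). Cntn3, a contactin of the immunoglobulin superfamily best known from neurons, had 2.48 and 3.39 against -3.02 (difference 5.95 ± 0.58, adjusted p = 0.0477). The adjusted p of the others was 0.0452.

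Just past the threshold stood further genes with differences of similar size, all of them above on both myeloma arrays. Tcf4, an E-protein transcription factor used by B cells and plasmacytoid dendritic cells, had 1.53 and 2.55 in myeloma and -3.92 in T-cell lymphoma (difference 5.97 ± 0.60, adjusted p = 0.0535). Pim1, a serine kinase that promotes survival, had 1.56 and 2.83 against -2.42 (difference 4.62 ± 0.66, adjusted p = 0.0905). Cp, the copper oxidase ceruloplasmin, had 2.03 and 2.85 against -2.002 (difference 4.44, adjusted p = 0.0702). These 3 genes were well over the pool in myeloma. In others the myeloma values were near the pool and the T-cell value was low. Cd81, a tetraspanin of the B-cell coreceptor, had -0.15 and 0.60 against -4.55 (difference 4.78, adjusted p = 0.0602). Maged1, a member of the MAGE family, had -0.50 and 0.07 against -4.72 (difference 4.51), and Comp, a cartilage matrix protein, had 0.75 and -0.14 against -4.80 (difference 5.11, adjusted p = 0.0602).

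The genes called lower in myeloma were S100a6, Emb, Kif7 and Lef1, each with an adjusted p of 0.0452. S100a6, a small calcium-binding protein, had -6.79 and -7.66 on the myeloma arrays against -0.35 on the T-cell lymphoma array (difference -6.87 ± 0.57). The myeloma line thus stood far under the pool, at a 117-fold lower ratio than the T-cell lymphoma line, which was near it. This fold, too, rests on values far under the pool, with no signal over background to judge them by. Emb, embigin, a partner protein of lactate transporters at the cell surface, had -2.65 and -3.37 against 3.16 (difference -6.17 ± 0.54). Lef1, a transcription factor that drives early T-cell development, had -3.03 and -2.77 against 2.18 (difference -5.08 ± 0.48). Emb and Lef1 lay under the pool in myeloma and over it in T-cell lymphoma. Kif7, a kinesin of the primary cilium and the Hedgehog pathway, had 0.48 and 0.72 against 6.11 (difference -5.50 ± 0.48), so that the myeloma values were slightly over the pool and the T-cell value was the highest of the 12 named genes called.

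Genes that lay at least 2 below in myeloma but were not called included several with a wide gap between the myeloma arrays. Ptprc, the phosphatase CD45 of nearly all blood cells, had -2.51 and -4.93 in myeloma and 2.39 in T-cell lymphoma (difference -6.11 ± 1.02, adjusted p = 0.104). Tuba4a, an alpha-tubulin, had -0.31 and -6.87 against 1.76 (difference -5.35 ± 2.49, adjusted p = 0.351). Vsnl1, a neuronal calcium sensor, had 0.38 and -3.69 against 3.73 (difference -5.39, adjusted p = 0.215), and Perp, a desmosomal protein, had -0.39 and -3.41 against 2.69 (difference -4.59, adjusted p = 0.189). For Tuba4a, Vsnl1 and Perp the size of the difference rested on myeloma array 2. Slc2a3, the neuronal-type glucose transporter, was steadier, with -2.04 and -1.24 against 2.82 (difference -4.46 ± 0.55, adjusted p = 0.0680). Esm1, Cln8 and Usp25 also had differences of -5.15, -4.69 and -4.28, but their probes lie in the low-numbered stretch, where the median difference of the neighbouring probes was -0.54, -0.62 and -0.83.

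Of the B-cell and plasma-cell list, 33 of 58 genes were measured. Both myeloma arrays lay above the T-cell lymphoma array for 21 of them (63.6%, against 38.6% of all named genes) and below it for 8 (24.2%, against 39.4%). The limma test called 2 higher, Blnk and Irf4, and 0 lower (0.125% of all named genes were called higher and 0.0625% lower). At an unadjusted p under 0.05 there were 15 higher and 1 lower, against 1236 of 7428 probes in both directions together. Here and below that count is of probes and is not split by direction, so it gives no share for either one. In all 9 lay at least 2 above (2.31% of all named genes) and 0 at least 2 below (2.11%). St6gal1, whose probes disagreed, is counted among those above by 1 probe. The median difference of the list was 0.85, against -0.03 over all named genes, and 0.50 against 0.07 with the image run as a fixed term. The list was written with earlier results of these data known, so its direction is a description and no independent evidence.

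Among the regulators of the plasma cell, Xbp1, the transcription factor of the unfolded protein response, had 2.15 and 2.60 in myeloma and -1.41 in T-cell lymphoma (difference 3.79 ± 0.50, adjusted p = 0.0742). Pou2af1, the B-cell coactivator of the octamer-binding factors, had 2.39 and 2.48 against -1.84 (difference 4.27 ± 0.47, adjusted p = 0.0602). Both stood over the pool in myeloma and under it in T-cell lymphoma. Prdm1, the repressor Blimp-1 that shuts down the B-cell programme, had 1.39 and 1.76 against -0.22 (difference 1.79 ± 0.49, adjusted p = 0.195). Its T-cell value was close to the pool, so it missed the rule of size. Both probes of Pou2f2, the octamer-binding factor Oct-2, gave nearly the same difference, 1.75 and 1.77, at different ratios: 1.28 and 1.91 against -0.16 for the first, and 0.33 and 0.63 against -1.29 for the second.

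Surface proteins of the lineage gave the next group. Sdc1, the heparan sulfate proteoglycan CD138 by which plasma cells are sorted, had 1.38 and 1.41 on the myeloma arrays and -3.09 on the T-cell lymphoma array (difference 4.48 ± 0.47, adjusted p = 0.0597). Tnfrsf13b, the receptor TACI for BAFF and APRIL, had 2.89 and 2.55 against -0.56 (difference 3.28 ± 0.48, adjusted p = 0.0905). Ms4a1, the B-cell surface protein CD20, had 2.12 and 2.79 against -1.01 (difference 3.46 ± 0.53, adjusted p = 0.0939). The groups were well separated in all 3 genes, Ms4a1 included, which normal plasma cells lose. Tnfrsf17, the receptor BCMA, had 1.08 and 1.23 against -0.10 (difference 1.25), and Cd40, the receptor of T-cell help, had 0.95 and 0.71 against -0.37 (difference 1.20). Smaller still was Cd22, an inhibitory coreceptor, with 0.27 and 0.17 against -0.45. St6gal1, the sialyltransferase that makes the ligand of CD22, had 3 probes that differed: 2.48 and 3.05 against 0.34, 1.71 and 2.14 against 1.33, and -0.59 and 0.29 against 0.31, so its direction is uncertain.

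Signalling members of the list beside Blnk were Btk and Syk, the kinases of the B-cell receptor. Btk had 1.09 and 1.95 in myeloma and -1.59 in T-cell lymphoma (difference 3.11 ± 0.57, adjusted p = 0.115), and 1.85 with the image run as a fixed term. Syk had 1.36 and 1.75 against -0.21 (difference 1.76, adjusted p = 0.199). Some further regulators and receptor chains of B cells had differences below 0. Pax5, the factor that holds B-cell identity, had 0.42 and -0.66 in myeloma and 1.10 in T-cell lymphoma (difference -1.22 ± 0.62, adjusted p = 0.383). Irf8 had 0.08 and -0.90 against 1.27 (difference -1.68, adjusted p = 0.268), and Bcl6, the germinal-centre repressor, had 0.87 and -0.21 against 1.18 (difference -0.85, adjusted p = 0.530). Cd79a had 1.15 and -0.61 against 1.37 (difference -1.10 ± 0.81, adjusted p = 0.532), with the myeloma arrays wide apart. Ebf1, a partner of Pax5, was higher on both myeloma arrays, with 0.35 and 0.92 against -0.53. None of these 5 genes was called.

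The promoter of Blnk is shown because its gene was called and it was the only promoter of the list to hold the octamer. Blnk was the member with the largest difference, and the octamer is the site of the factors that Pou2af1 assists. The motif ATGCAAAT was searched on both strands of RefSeq promoters (GRCm38.p6; from 250 bases before to 50 bases after the start site). It was found in 1 of the 29 promoters matched to the B-cell and plasma-cell list (3.45%), against 570 of 32851 promoters in all (1.74%), so the share says nothing of the list. The 250 bases before the start of Blnk, chr19:40994222-40994471 on the minus strand, are written 5' to 3' in the direction of the gene, with the octamer, read here as its reverse complement, in capitals.
Blnk: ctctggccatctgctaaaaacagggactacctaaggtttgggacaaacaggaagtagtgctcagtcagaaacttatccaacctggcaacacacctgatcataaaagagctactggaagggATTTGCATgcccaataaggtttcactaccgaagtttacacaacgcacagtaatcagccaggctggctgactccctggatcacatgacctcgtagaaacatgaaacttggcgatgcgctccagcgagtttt

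Of the T-cell list, 42 of 61 genes were measured. Both myeloma arrays lay below the T-cell lymphoma array for 20 (47.6%, against 39.4% of all named genes) and above it for 11 (26.2%, against 38.6%). The limma test called 1 lower, Lef1, and 0 higher. At an unadjusted p under 0.05 there were 13 lower and 4 higher, against 1236 of 7428 probes in both directions together. By the rule of size 10 lay at least 2 below (2.11% of all named genes) and 1 at least 2 above (2.31%). The median difference of the whole list was only -0.23, against -0.03 over all named genes. A small number of members thus stood far apart and most did not.

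Of the 10 members at least 2 below, Lef1 and Ccr9 had the largest differences, and 4 are parts of the T-cell receptor pathway. Cd3g, the gamma chain of CD3, had -1.39 and -0.67 in myeloma and 2.31 in T-cell lymphoma (difference -3.34 ± 0.54, adjusted p = 0.0997). Lat, the membrane adaptor that Zap70 phosphorylates, had -0.75 and -1.52 against 2.12 (difference -3.26 ± 0.55, adjusted p = 0.106). Lcp2, the adaptor SLP-76, had -1.36 and -2.02 against 1.56 (difference -3.25 ± 0.53, adjusted p = 0.1003). In each of these the myeloma arrays were under the pool and the T-cell lymphoma array over it. Zap70, the receptor-proximal kinase, had -0.89 and -1.45 against 1.68 (difference -2.85 ± 0.51, adjusted p = 0.111). With the spread of all 14 arrays Cd3g, Lat, Lcp2 and Zap70 passed the threshold, with adjusted p-values of 0.0464, 0.0367, 0.0457 and 0.0457. Of the 14 alternatives 3 called Cd3g, Lat and Lcp2, and 2 called Zap70. None of these genes was called with equal spread or with the image run as a fixed term. Rasgrp1, which activates Ras below the receptor, had 0.09 and -1.28 against 1.85 (difference -2.44 ± 0.69, adjusted p = 0.204), short of the rule on myeloma array 1.

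Further members of the T-cell list lay at least 2 below in myeloma. Dntt, the terminal transferase that adds bases to receptor gene joints, had -2.32 and -0.36 in myeloma and 2.00 in T-cell lymphoma (difference -3.34 ± 0.87, adjusted p = 0.186). Bcl11b, the factor that commits cells to the T lineage, had -0.79 and -0.29 against 2.41 (difference -2.95 ± 0.50, adjusted p = 0.106). Ccr9, a chemokine receptor of thymocytes and gut-homing cells, had -1.94 and -2.33 against 2.36 (difference -4.50 ± 0.49, adjusted p = 0.0602). The difference of Ccr9 was -2.12 with the image run as a fixed term, and its adjusted p was 0.127 with the spread of all 14 arrays, where that of Dntt was 0.111 and that of Bcl11b 0.0519. Thy1, the surface marker CD90, had -0.75 and -1.38 against 1.33 (difference -2.40), and Pdcd1, the inhibitory receptor PD-1, had -0.66 and -0.22 against 2.35 (difference -2.79). The recombinase genes lay below on both myeloma arrays too but missed the rule of size, as Rag1 had 0.60 and -0.12 against 1.45 and Rag2 had -2.003 and -0.18 against -0.12.

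The coreceptors and several T-cell genes showed little. Cd4 had 0.11 and -0.22 in myeloma against 0.23 in T-cell lymphoma, and Cd8b1 had 0.02 and 0.34 against 0.20. Both probes of Cd8a lay slightly above in the mean, by 0.33 and 0.62. Gata3, a factor of helper T cells, had 0.44 and 0.19 against 0.43. In none of these genes did the difference exceed its standard error, and none was called. Il2ra, a chain of the interleukin 2 receptor, had 4 probes with differences from -1.13 to 0.88, so that its direction is uncertain. A few list members lay above in myeloma. Ly6d, a surface marker of early B cells and some thymocytes, had 2.16 and 2.43 against -0.95 (difference 3.25 ± 0.48, adjusted p = 0.0905). Notch1, the receptor that directs cells to the T lineage, had -0.11 and 0.47 against -1.95 (difference 2.13 ± 0.52, adjusted p = 0.173), and Notch3 had -0.96 and -1.42 against -3.14 (difference 1.95, adjusted p = 0.181). The Notch genes were thus low against the pool in the T-cell lymphoma line.

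**Figure D3:**
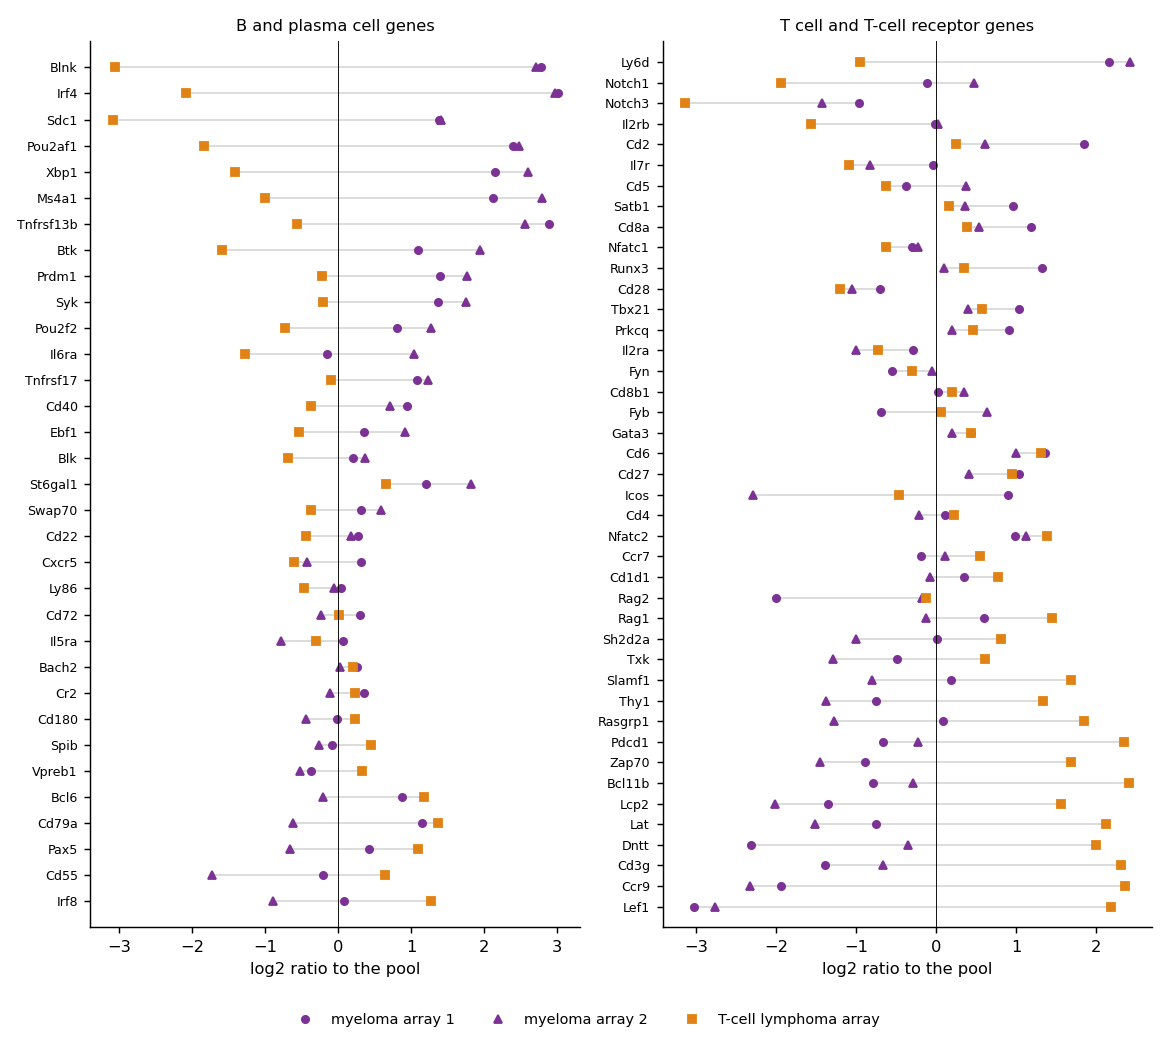
Log2 ratio to the pool (horizontal axis) of each measured gene of the B-cell and plasma-cell list (33 genes, left) and of the T-cell list (42 genes, right), with several probes of a gene averaged. Purple circles are myeloma array 1, purple triangles myeloma array 2 and orange squares the T-cell lymphoma array, and genes run from the highest difference at the top to the lowest; Blnk and Lef1 stand at the ends with differences of 5.80 and -5.08.

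Most measured genes of the endoplasmic reticulum and the secretory pathway lay above in myeloma. Of 97 genes on the list 42 were measured, and both myeloma arrays lay above the T-cell lymphoma array for 29 (69.0%, against 38.6% of all named genes) and below it for 5 (11.9%, against 39.4%). The median difference was 1.19, against -0.03 over all named genes. The median log2 ratio of the list was 0.35 and 0.76 on myeloma arrays 1 and 2, against -0.44 on the T-cell lymphoma array. By the rule of size 4 lay at least 2 above and 0 at least 2 below (2.31% and 2.11% of all named genes). Limma called 0 of the list, with the spread of 3 or of 14 arrays. At an unadjusted p under 0.05 it had 18 higher and 0 lower, against 1236 of 7428 probes in both directions together. The differences were thus spread over the list and of modest size per gene. With the image run as a fixed term bridged by the fibroblast line the median was 0.72 and the difference of Sel1l, given next, was 1.48.

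The 4 genes at least 2 above act in folding, glycosylation and degradation. Sel1l, an adaptor of the complex that retires misfolded proteins, had 0.80 and 1.99 in myeloma and -1.28 in T-cell lymphoma (difference 2.67 ± 0.64, adjusted p = 0.171). Rpn2, a subunit of the oligosaccharyltransferase, had 1.33 and 1.58 against -1.08 (difference 2.53 ± 0.48, adjusted p = 0.122). Hsp90b1, the chaperone GRP94, had 1.45 and 2.24 against -0.68 (difference 2.52 ± 0.55, adjusted p = 0.144). Pdia4, a disulfide isomerase, had 0.98 and 1.51 against -1.03 (difference 2.28 ± 0.51, adjusted p = 0.148). Each had the same order, with myeloma array 2 the highest and the T-cell lymphoma array under the pool.

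Neighbours in the same machinery followed at smaller sizes. Ssr4, a subunit of the translocon-associated complex, had a difference of 2.07, Ddost, another oligosaccharyltransferase subunit, 1.77, and Sec61a1, the channel of the translocon, 1.41. The coat proteins of Golgi vesicles Copa, Cope, Copb1, Copg1 and Copb2 had differences of 1.91, 1.56, 1.41, 1.32 and 1.21. The chaperone Hyou1 had a difference of 1.46 and the co-chaperone Dnajb9 one of 1.33, and P4hb, the main disulfide isomerase, one of 1.43. Not all members joined in. Sdf2l1, a co-factor of chaperones, had 1.37 and 1.61 in myeloma and 1.48 in T-cell lymphoma (difference 0.00), so it was equally over the pool in both lines. Dad1, an oligosaccharyltransferase subunit, had -0.12 and -1.19 against 0.70 (difference -1.35 ± 0.61, adjusted p = 0.340).

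**Figure D4:**
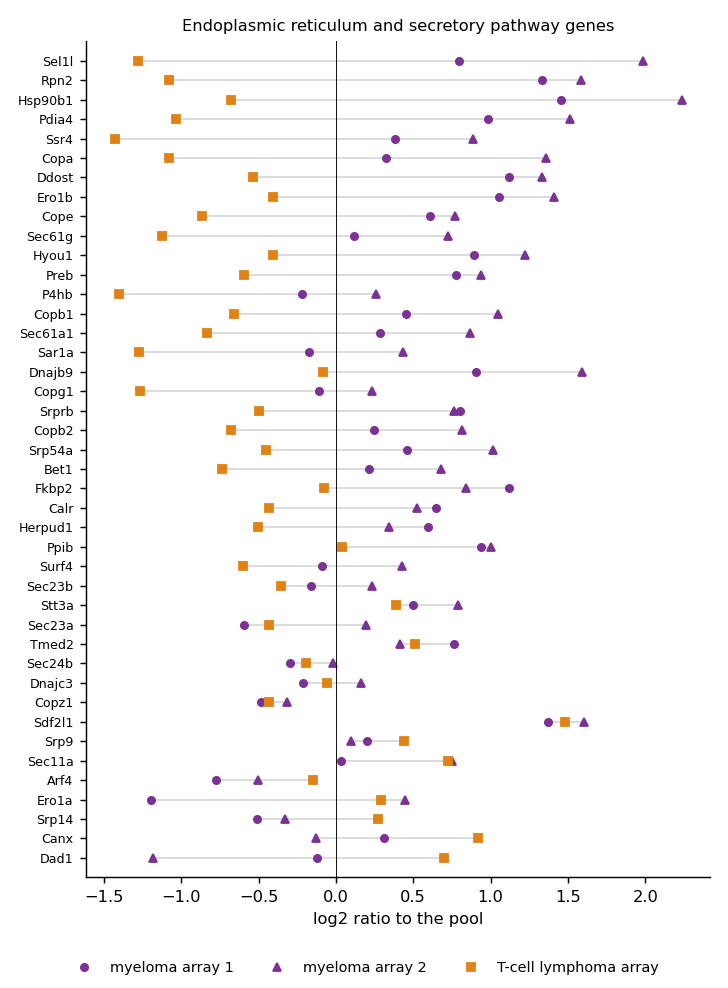
Log2 ratio to the pool (horizontal axis) of the 42 measured genes of the endoplasmic reticulum and secretory list, ordered by their difference. Purple circles are myeloma array 1, purple triangles myeloma array 2 and orange squares the T-cell lymphoma array; from Sel1l down to Surf4 both myeloma arrays lie to the right of the T-cell lymphoma array.

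Several of these genes carry the endoplasmic reticulum stress element, a bipartite motif through which the unfolded protein response and NF-Y act on chaperone genes. The motif, CCAAT and CCACG parted by any 9 bases, was searched on both strands and was found in 5 of the 39 list promoters that RefSeq holds (12.8%), against 39 of 32851 promoters in all (0.119%), in 0 of 29 of the B-cell and plasma-cell list and in 0 of 29 of the T-cell list. The motif was first described in promoters of chaperone genes, so its share in this list is background and not a result of the arrays. The 5 sites are shown because the genes that share the motif differed in their values. Each is written 5' to 3' in the direction of its gene with 8 bases on either side, and capitals mark the fixed letters, which read CGTGG and ATTGG where the motif lies on the other strand.
Hsp90b1: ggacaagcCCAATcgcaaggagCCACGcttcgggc
Ero1b: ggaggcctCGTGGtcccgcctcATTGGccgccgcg
Calr: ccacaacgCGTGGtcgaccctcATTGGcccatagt
Dnajc3: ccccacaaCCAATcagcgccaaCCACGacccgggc
Canx: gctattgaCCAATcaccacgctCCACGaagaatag

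The sites lie at chr10:86705630-86705664 (minus strand) for Hsp90b1, which has 2 matches of which the first is printed, at chr13:12565674-12565708 (plus strand) for Ero1b, and at chr8:84847067-84847101 (minus strand) for Calr. Those of Dnajc3 and Canx lie at chr14:118937819-118937853 (plus strand) and chr11:50325792-50325826 (minus strand). All are upstream of the RefSeq start site in the GRCm38.p6 build. Hsp90b1 had the largest difference of these genes, 2.52. Ero1b, an oxidase that recharges disulfide isomerases, had 1.05 and 1.41 in myeloma and -0.41 in T-cell lymphoma (difference 1.64 ± 0.49, adjusted p = 0.215). Calr, the lectin chaperone calreticulin, had 0.65 and 0.53 against -0.43 (difference 1.02, adjusted p = 0.346). Dnajc3, a co-chaperone that also checks the kinase of the stress response, had -0.21 and 0.16 against -0.06 (difference 0.03), and Canx, the membrane-bound partner of calreticulin, had 0.31 and -0.13 against 0.92 (difference -0.82, adjusted p = 0.448). Genes with the same fixed letters thus ranged from a difference of 2.52 to one of -0.82, and none was called.

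Of the interferon and MHC list 24 of 54 genes were measured, and both myeloma arrays lay above for 16 (66.7%, against 38.6% of all named genes) and below for 3 (12.5%, against 39.4%), with a median difference of 0.84. Beside Cd74, called higher, Psmb8, a subunit of the immunoproteasome, lay above on both of its probes, with 1.45 and 1.69 in myeloma against -1.75 in T-cell lymphoma on the first and 1.48 and 1.63 against -1.40 on the second (differences 3.32 and 2.95). B2m, the light chain of MHC class I, had 0.46 and 1.10 against -1.83 (difference 2.61 ± 0.53, adjusted p = 0.133). Psmb9, a further immunoproteasome subunit, had 1.5 and 1.31 against -0.62 (difference 2.02). These members all serve the processing or display of peptides. Usp18, which removes the ubiquitin-like ISG15, was the only measured member at least 2 below, with -0.95 and -1.42 against 1.38 (difference -2.57 ± 0.50, adjusted p = 0.128). Here and in the lists that follow, members were named after their values were seen wherever they are more than the first few by size.

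Of the lysosomal list 25 of 42 measured genes lay above on both myeloma arrays (59.5%, against 38.6% of all named genes) and 5 below (11.9%, against 39.4%). The median difference was 0.88, and 0.43 with the image run as a fixed term. By the rule of size 6 genes lay at least 2 above and 1 at least 2 below (2.31% and 2.11% of all named genes). Limma called 0, with 12 higher and 2 lower at an unadjusted p under 0.05, against 1236 of 7428 probes in both directions together. Lgmn, the asparaginyl protease legumain, had 0.32 and 0.49 in myeloma and -3.86 in T-cell lymphoma (difference 4.27 ± 0.47, adjusted p = 0.0602). Cd68, a lysosomal membrane protein, had -0.64 and -0.46 against -4.37 (difference 3.82 ± 0.47, adjusted p = 0.0680). For both the myeloma values were near the pool and the T-cell value was far under it. The cathepsins Ctss, Ctsl and Ctse followed with differences of 3.76, 3.28 and 3.23, from different levels: Ctss had 1.32 and 1.69 against -2.25, Ctse had 2.13 and 2.15 against -1.09, and Ctsl had -2.73 and -1.83 against -5.57. With the spread of all 14 arrays Lgmn, Cd68, Ctse and Ctsl passed the threshold (adjusted p = 0.0121, 0.0165, 0.0272 and 0.0457). Laptm5, a lysosomal protein of blood cells, was the member at least 2 below, with -1.80 and -1.44 against 0.75.

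Of the survival and apoptosis list 6 of 40 measured genes lay at least 2 above in myeloma and 0 at least 2 below (2.31% and 2.11% of all named genes). The median difference was 0.33, which turned to -0.01 with the image run as a fixed term. Limma called 0, with 9 higher and 0 lower at an unadjusted p under 0.05, against 1236 of 7428 probes in both directions together. Pmaip1, the BH3-only protein Noxa, had 0.97 and 0.78 in myeloma and -3.03 in T-cell lymphoma (difference 3.91 ± 0.47, adjusted p = 0.0680). Gadd45b, a stress-response protein, had 1.38 and 2.05 against -1.95 (difference 3.67 ± 0.53, adjusted p = 0.0905). Beside Pim1 these were joined by Casp12, a caspase linked to the endoplasmic reticulum, with -0.97 and -0.33 against -4.26. Bad, a BH3-only protein, had 2.00 and 2.94 against -1.02, and Mcl1, a BCL2-family protein on which plasma cells depend, had 0.78 and 1.43 against -1.56. Genes that promote death and genes that promote survival were thus both among those above.

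Cytokines, chemokines and their receptors were split. Of 89 measured genes 4 lay at least 2 above and 5 at least 2 below (2.31% and 2.11% of all named genes), and the median difference was 0.34. Limma called 0, with 12 higher and 8 lower at an unadjusted p under 0.05, against 1236 of 7428 probes in both directions together. Ltb, lymphotoxin beta, had 2.29 and 2.06 in myeloma and -1.66 in T-cell lymphoma (difference 3.83 ± 0.47, adjusted p = 0.0680). Cxcr4, the receptor that holds plasma cells in the bone marrow, had 2.41 and 2.57 against -0.71 (difference 3.20 ± 0.47, adjusted p = 0.0905). Il6, a growth factor of myeloma cells, had 2.48 and 2.85 against 0.29 (difference 2.38 ± 0.49, adjusted p = 0.133), and Ifnar2, a chain of the interferon receptor, had 0.61 and 1.37 against -1.43. Below were Ccr9, given above, and Tnfsf11, the osteoclast factor RANKL, with -0.92 and -3.06 against 1.35. Tgfb3 had -3.48 and -3.47 against -0.45, Tnfrsf18, the receptor GITR, had -0.39 and -1.11 against 2.10, and Tgfb1 had -0.96 and -0.72 against 1.56. The probe of Tgfb1 lies in the low-numbered stretch, and so does that of Il6, where the shift of the T-cell lymphoma array runs against the difference of Il6.

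The transcription factor list of blood cells had 58 measured genes, with a median difference of 0.11. Of these 5 lay at least 2 above and 3 at least 2 below (2.31% and 2.11% of all named genes). Beside Tcf4, Irf4 and Pou2af1 those above were Lyl1, a factor of early blood cells, with 1.74 and 1.38 in myeloma and -0.91 in T-cell lymphoma (difference 2.47), and Mef2c, a factor of B-cell responses, with 1.74 and 1.77 against -0.48 (difference 2.23). Beside Lef1 and Bcl11b, the member below was Myb, a factor of immature blood cells, with -1.12 and -0.23 against 1.91 (difference -2.58 ± 0.57, adjusted p = 0.148). With the image run as a fixed term the difference of Myb was -0.02 and that of Lyl1 was 1.47. Pax5, Irf8 and Bcl6, given above, lay on the same side as Lef1.

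Of 64 measured kinases, phosphatases and adaptors of lymphocytes 4 lay at least 2 above, Blnk, Btk, Prkcd and Map4k1 (2.31% of all named genes). At least 2 below lay 6, Ptprc, Dok2, Lat, Lcp2, Zap70 and Grb2 (2.11% of all named genes). The median difference was -0.10, which turned to 0.02 with equal spread. Dok2, an adaptor that restrains receptor signals, had -2.22 and -2.02 in myeloma and 1.93 in T-cell lymphoma (difference -4.05 ± 0.47, adjusted p = 0.0644). Grb2, the adaptor that couples receptors to Ras, had -1.51 and -1.07 against 1.35 (difference -2.63 ± 0.50, adjusted p = 0.122). Prkcd, a protein kinase C of B cells, had 0.74 and 0.90 against -1.44, and Map4k1, a kinase that acts on SLP-76 and Blnk, had 1.47 and 1.55 against -0.64. Among these 10 genes Blnk was called.

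Genes shared by most leukocytes did not lean one way. Of 33 measured genes both myeloma arrays lay above for 14 (42.4%, against 38.6% of all named genes) and below for 16 (48.5%, against 39.4%). The median difference was -0.20. Its sign turned to 0.06 with quantile normalization and to 0.16 with the running median along the probe number removed. Cd48 and Itgb7 lay at least 2 above, with 1.67 and 2.39 in myeloma against -0.67 in T-cell lymphoma for Cd48 and 0.57 and 0.96 against -1.79 for Itgb7. Cd52, a small surface glycoprotein, had 2.29 and 2.45 against -0.09. Beside Ptprc and Laptm5, a lower value in myeloma stood in Coro1a, an actin regulator, which was not called and had 0.24 and 0.37 against 2.11. Cd53, a tetraspanin of leukocytes, had 1.19 and 1.11 against 1.79, so it was over the pool in both lines.

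S100 proteins and galectins made up 3 of the widest gaps below. S100a4, a neighbour of S100a6 in its gene cluster, had -4.38 and -5.40 in myeloma and 0.66 in T-cell lymphoma (difference -5.54 ± 0.60, adjusted p = 0.0602). Lgals1, galectin 1, had -5.19 and -6.38 against -0.55 (difference -5.24 ± 0.64, adjusted p = 0.0680). In both, as in S100a6, the myeloma values were far under the pool and the T-cell value was near it. With the spread of all 14 arrays the adjusted p was 0.00988 for S100a6 and 0.0164 for S100a4 and for Lgals1. The rest of the list of 23 measured genes, whose median difference was -0.36, stayed short of the rule of size. S100a8, a protein of granulocytes, had 0.35 and 0.62 against -1.25.

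Genes known best from epithelia and adhesion were found among those above. Of 26 measured epithelial genes 3 lay at least 2 above and 1 at least 2 below (2.31% and 2.11% of all named genes). Their median difference was 0.44, and 0.12 where the arrays were scaled to an equal spread. Beside Epcam, Cldn7, a claudin that binds Epcam, had 2.09 and 2.51 in myeloma and -2.01 in T-cell lymphoma (difference 4.31 ± 0.49, adjusted p = 0.0602), and Elf3, an epithelial ETS factor, had 1.52 and 2.51 against -0.94 (difference 2.96 ± 0.59, adjusted p = 0.133). Epcam and Cldn7 both stood over the pool in myeloma and far under it in T-cell lymphoma. Other epithelial members gave smaller or opposite values: Cdh1, E-cadherin, had 0.62 and 1.28 against -0.60, and Krt18, a keratin, had 0.43 and -4.58 against 1.62. Of 44 integrin and adhesion genes 5 lay at least 2 above and 1, Emb, at least 2 below (2.31% and 2.11% of all named genes). Their median difference was 0.54, and 0.20 with the image run as a fixed term. Icam1, a ligand of leukocyte integrins, had 1.61 and 2.26 against -1.13 (difference 3.06 ± 0.53, adjusted p = 0.108), Pecam1 had 2.33 and 1.70 against -0.54, and F11r had -0.93 and -0.81 against -3.53.

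**Figure D5:**
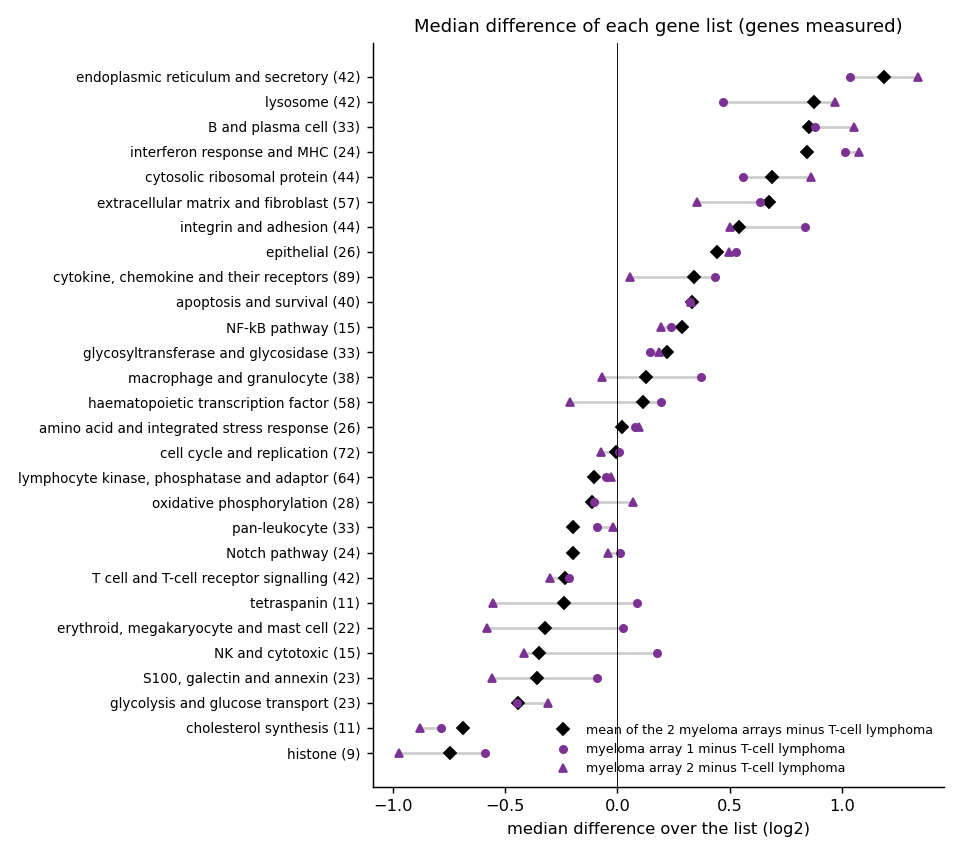
Median over each gene list of the difference from the T-cell lymphoma array on the log2 scale (horizontal axis), with the number of measured genes in brackets. Black diamonds are the medians of the genes' mean differences and purple circles and triangles the medians for myeloma arrays 1 and 2 taken alone, so a diamond need not lie between them; endoplasmic reticulum and secretory genes stand highest at 1.19 and histone genes lowest at -0.74.

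Growth and metabolism were covered by further lists. Cell cycle and replication genes had a median difference of 0.00 over 72 measured genes. On both arrays 28 lay above (38.9%, against 38.6% of all named genes) and 27 below (37.5%, against 39.4%). The members at least 2 above were Ccnd2, a D-type cyclin of lymphocytes, with 1.82 and 1.91 in myeloma and -1.06 in T-cell lymphoma (difference 2.93 ± 0.47, adjusted p = 0.0997), and the checkpoint kinase Bub1, with 1.27 and 2.31 against -0.92. Cytosolic ribosomal protein genes had a median of 0.69 over 44 genes, led by Rplp1 with 0.79 and 0.32 against -2.38. Of these genes 28 lay above (63.6%, against 38.6% of all named genes) and 7 below (15.9%, against 39.4%). With the image run as a fixed term that median was 0.34. Glycolysis genes had a median of -0.44 over 23, with 3 above (13.04%, against 38.6% of all named genes) and 14 below (60.9%, against 39.4%). Eno3, an enolase of muscle, had 0.86 and 0.69 against -2.14 on 1 probe (difference 2.91), and Ldhb, a lactate dehydrogenase, had -0.77 and -1.01 against 1.34. Cholesterol synthesis genes had a median of -0.69 over 11, with 1 above (9.09%, against 38.6%) and 8 below (72.7%, against 39.4%). Cyp51, a demethylase of that pathway, had -1.36 and -1.60 against 0.85 (difference -2.33 ± 0.48, adjusted p = 0.133). None of these genes was called, and the direction of the cell cycle median turned with centring, to 0.02. Over amino acid and stress-response genes the median was 0.02, and over oxidative phosphorylation genes it was -0.11; with the running median along the probe number removed these turned to -0.07 and 0.10. Over Notch pathway genes it was -0.20 and over NF-kB genes 0.29, which turned to 0.12 and -0.02 with the image run as a fixed term.

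Markers of other cell types were looked at beside these groups. Macrophage and granulocyte genes had a median difference of 0.13 over 38 measured genes, which turned to -0.02 with equal spread, and the members at least 2 above were Cd68 and Ctss. Their list median was -0.04 and -0.34 on the myeloma arrays and -0.66 on the T-cell lymphoma array. Genes of natural killer cells (15 measured) and of red cells, megakaryocytes and mast cells (22 measured) had medians of -0.35 and -0.32, which turned to 0.32 and 0.12 with the image run as a fixed term, and none of them passed the rule of size. Matrix and fibroblast genes were far under the pool in both lines, with list medians of -2.48 and -2.54 on the myeloma arrays and -2.75 on the T-cell lymphoma array over 57 genes. Their median difference was 0.67, and its sign turned to -0.10 where the arrays were scaled to an equal spread. The part of such cells in the results above was not tested.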

How the data were processed

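Per the labels, total RNA of each line (Cy5) was hybridised with a common reference (Cy3) on spotted arrays. The values are the log ratios the authors deposited, 1 per spot and array, and were read as log2. Background correction, normalization, spot filters and signal over background are not described there, and the number of arrays limits the precision. Base, direction and centring are not stated either. Over all 11 lines the median of the mean unlogged ratio was 1.00 when read as log2 of line over pool. It was 1.20 for pool over line, 1.07 for natural logs and 1.87 for log10. Base 2 was assumed, and every fold rests on it. The array medians were 0.00 and -0.06 for myeloma and 0.00 for T-cell lymphoma.

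The 80 Gapdh spots among 7680 were averaged. Of the probes, 6835 had 1 gene symbol in the platform annotation, 4 had several and 845 had none; the last 2 kinds were left unnamed. RefSeq (GRCm38.p6) updated or matched 6809 symbols. Probes of a gene were tested apart, and averaged for medians of lists. Of 168 genes with several probes, 24 had a probe at least 2 apart on both myeloma arrays, and 7 of these had a probe in the opposite direction.

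Tests used limma 3.58.1 in R 4.3.3 (lmFit and eBayes, two-sided, adjusted over 7428 probes). The myeloma pair left 1 residual degree of freedom, and moderation contributed 4.39 more at a prior SD of 0.423. A probe was called at an adjusted p under 0.05 with both myeloma arrays on the same side of the T-cell lymphoma array. The procedure was run on simulated data in which all arrays had the same spread for a probe. It could thus not test the assumption that the lone T-cell lymphoma array varies like the myeloma pair. Figures were drawn with matplotlib 3.10.9. The members and the 28 gene lists were chosen with earlier results of these data known; 1264 of 1265 list entries matched RefSeq. Named genes are the 4 given markers, the 15 largest differences each way (called first), any member of the B-cell, T-cell, leukocyte and secretory lists, and the leading members of other lists. Alternatives changed the arrays in the fit, scaling, image run, log base, size limit, probe set and trend along the probe number.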

Additional observations from a re-analysis of the deposited data

How the results depend on the processing

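The count of called probes moved with almost every choice. Against 15 (10 higher and 5 lower in myeloma), it was 110 (68 and 42) with the spread of all 14 arrays, 66 (44 and 22) with each array centred on its median, 143 (84 and 59) with quantile normalization and 77 (46 and 31) with the image run as a random block. It was 0 with arrays scaled to an equal spread, with the image run as a fixed term bridged by the fibroblast line, and with probes averaged per gene (smallest adjusted p 0.0562; 1061 at an unadjusted p under 0.05). Leaving out a myeloma array, in the fit of all 14, gave 0 to 19 calls, 0 to 7 higher and 0 to 12 lower. The 2 alternatives chosen after seeing the shifted T-cell lymphoma array gave 48 (30 and 18) with the running median removed and 36 (24 and 12) without the low-numbered probes, with all 15 calls among them. The remaining alternatives gave 14 to 16. The cause of these moves was not tested.

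The rule of size took 310 and 417 probes above and below without myeloma array 1, and 234 and 259 without myeloma array 2, since 1 array then has to pass it. It took 361 and 376 with natural logs, 683 and 711 at a limit of 1, and 53 and 32 at a limit of 3. Of 100 named genes, 92 were followed through 14 alternatives and 8, whose probes have low numbers, through 13. The 100 were the given markers, the named genes with the largest differences and the list members that passed the rule of size. Among these 0 reversed direction, and 59 that were not called here were called in at least 1. The genes were picked for wide differences, and every alternative kept the same T-cell lymphoma array. A reversal was thus unlikely from the start, and its absence is no independent support. With the image run as a fixed term 19 shrank by over 1.5 times. Among them were Cd81 at 3.13, Ltb at 2.23, Ctss at 2.26, Elf3 at 1.80, Pecam1 at 1.27, Cd52 at 1.24 and Laptm5 at -0.69. The run term rests on 1 fibroblast array per run, so these values are no better estimate of the difference. No paired analysis was possible because the T-cell lymphoma line has 1 array and the groups share no 2 replicate numbers. With 3 arrays of which 2 are of 1 group, a missed threshold does not show equal levels, and no signal over background was available to the analysis.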

Other observations

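Smaller gene groups held values not given above. Of 9 measured histone genes both myeloma arrays lay above the T-cell lymphoma array for 2 (22.2%, against 38.6% of all named genes). They lay below it for 7 (77.8%, against 39.4%). The median difference was -0.74, and 0 passed the rule of size. H3c7 had -0.72 and -0.04 in myeloma and 1.86 in T-cell lymphoma. Limma called 0 of the histone genes, with 0 higher and 4 lower at an unadjusted p under 0.05, against 1236 of 7428 probes in both directions together. Of 11 tetraspanins 2 lay at least 2 above and 1 at least 2 below (2.31% and 2.11% of all named genes). Their median of -0.24 turned to 0.15 with the running median along the probe number removed. Cd151, a partner of laminin-binding integrins, had -0.01 and -0.41 in myeloma and -2.65 in T-cell lymphoma. Cd82, which restrains cell movement, had -1.94 and -1.94 against 0.67 (difference -2.62 ± 0.47, adjusted p = 0.111). Glycosyltransferases and glycosidases had a median of 0.22 over 33 genes. St6gal1, whose probes disagreed, was the member at least 2 above, by 1 probe. St3gal2, another sialyltransferase, was the member at least 2 below, at -1.56 and -1.75 in myeloma and 0.63 in T-cell lymphoma. Bcl3, a nuclear partner of NF-kB, had 1.23 and 1.71 against -0.96.

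Probes of the same gene did not always share a direction. Flna, the actin cross-linker filamin A, had -2.76 and -2.18 in myeloma against 0.19 in T-cell lymphoma on the first probe, and 0.87 and -1.90 against -0.84 on the second. Agrn, the matrix protein agrin, had 0.73 and 0.84 against -1.40 on the first, and -0.33 and -1.56 against 0.43 on the second. Trf, the iron carrier transferrin, had 4 probes with differences from -2.26 to 0.41. The direction of such genes is uncertain. The counts by the rule of size still took a gene where any of its probes passed, St6gal1 among them. Of the 15 called probes 3 have no gene name here. The first had 2.02 and 3.23 in myeloma against -6.85 in T-cell lymphoma (difference 9.47), close to the values of Gas6. The second had 0.07 and -0.32 against -5.78 (difference 5.66), and the last had -4.25 and -4.20 against 0.69 (difference -4.92). Their limma adjusted p was 0.0452 each.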
